A study of Mus musculus with 6 samples.

Results

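In all, 10 genes that mark macrophages and dendritic cells of the bone marrow were followed in sorted LSK cells, out of 34821 gene names on the array. They were Itgax, Cd5l, Mpeg1, C1qa, C1qb, C1qc, Emr1, Mrc1, Vcam1 and Siglech, and every non-control probe carrying 1 of these gene names was taken, which gave 15 of its 55681 probes. LSK cells are the fraction low or negative for lineage markers and positive for Sca-1 and c-Kit, where blood stem cells and the earliest progenitors are found. They were sorted from mice with the NIKaly/aly genotype (3 samples, numbered 2, 4 and 6) and from wild type mice (3 samples, numbered 1, 3 and 5). The product of Map3k14 is NIK, a kinase needed for alternative NF-kB signalling, and aly is an inactivating point mutation of it that is carried by the whole animal, not by blood cells alone. The labels give no age, sex or treatment, and do not state that each sample is another animal, so the p-values measure a spread between samples that could be technical. Total RNA was amplified, labelled with Cy3 and hybridised to 1-colour Agilent oligonucleotide arrays, 1 sample per array, 6 arrays on 1 slide.

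Macrophages of the marrow engulf dying cells and the nuclei that erythroblasts expel, and recycle the iron of heme. They carry F4/80 (the product of Emr1, now Adgre1) and VCAM-1, and secrete the C1q complex and the scavenger receptor-like protein that Cd5l encodes. Dendritic cells present antigen: conventional ones carry CD11c, the integrin chain encoded by Itgax, and plasmacytoid ones, which make type I interferon, carry Siglec-H. Mature cells of these kinds are not part of the LSK fraction, although early progenitors already transcribe some myeloid genes at low level.

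All levels below are log2 of the background-subtracted signal relative to the array's own 75th percentile, so that 0 is the 75th percentile. A probe counts as detected where the scanner software set it well above background. The arrays differed in brightness: on the linear scale, their 75th percentile lay at 126, 201 and 50.8 in NIKaly/aly 2, 4 and 6, against 47.0, 225 and 80.2 in wild type 1, 3 and 5. The lowest level set well above background lay accordingly between -3.74 in wild type 3 and -1.58 in NIKaly/aly 6, so a dim probe can be read further down on the bright arrays. Over the tested probes, arrays with consecutive numbers, 1 of each genotype, correlated most (Pearson's r across probes 0.974 to 0.989, against 0.934 to 0.974 within a genotype). Kit and Ly6a, which encode the c-Kit and Sca-1 of the sort gate, were detected on all 6 arrays. Kit was at 4.66, 5.17 and 5.45 in NIKaly/aly 2, 4 and 6, against 4.65, 5.20 and 4.88 in wild type 1, 3 and 5. Ly6a was at 2.94, 2.44 and 1.5 in NIKaly/aly 2, 4 and 6, against 3.67, 2.79 and 2.45 in wild type 1, 3 and 5, a difference of -0.68 ± 0.46 with overlapping groups (SE, n = 3 each; limma adjusted p = 0.99998). The abundant neutrophil gene S100a9 was between 9.32 and 11.84 on every array, and the beta-globin gene Hbb-b1 between 2.47 and 7.61. The brighter Map3k14 probe differed by 0.31 ± 0.49 between NIKaly/aly and wild type (SE, n = 3 each; limma adjusted p = 0.99998), and as a point mutation need not alter the transcript level this does not check the labels.

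The number of member probes detected overlapped between the genotypes. Of the 15, 12, 6 and 5 were well above background in NIKaly/aly 2, 4 and 6, against 10, 9 and 13 in wild type 1, 3 and 5. As a share that is 80%, 40% and 33.3% in NIKaly/aly and 66.7%, 60% and 86.7% in wild type, beside 35.9%, 42.6% and 32.5% of all probes in NIKaly/aly and 31.8%, 44.5% and 36.8% in wild type. NIKaly/aly 2 and wild type 5 thus detected the most members, and NIKaly/aly 4 and 6 the fewest. A probe was tested where it was well above background on at least 3 arrays, whichever they were. That left 11 probes of 8 genes, since C1qa passed on 2 arrays and Mrc1, the mannose receptor of macrophages, on none. Mrc1 read -3.89, -5.24 and -3.53 in NIKaly/aly 2, 4 and 6, against -3.56, -5.38 and -2.26 in wild type 1, 3 and 5, and no fold is given for it. In bulk RNA, fewer cells of a type and less RNA per cell cannot be told apart.

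**Figure D1:**
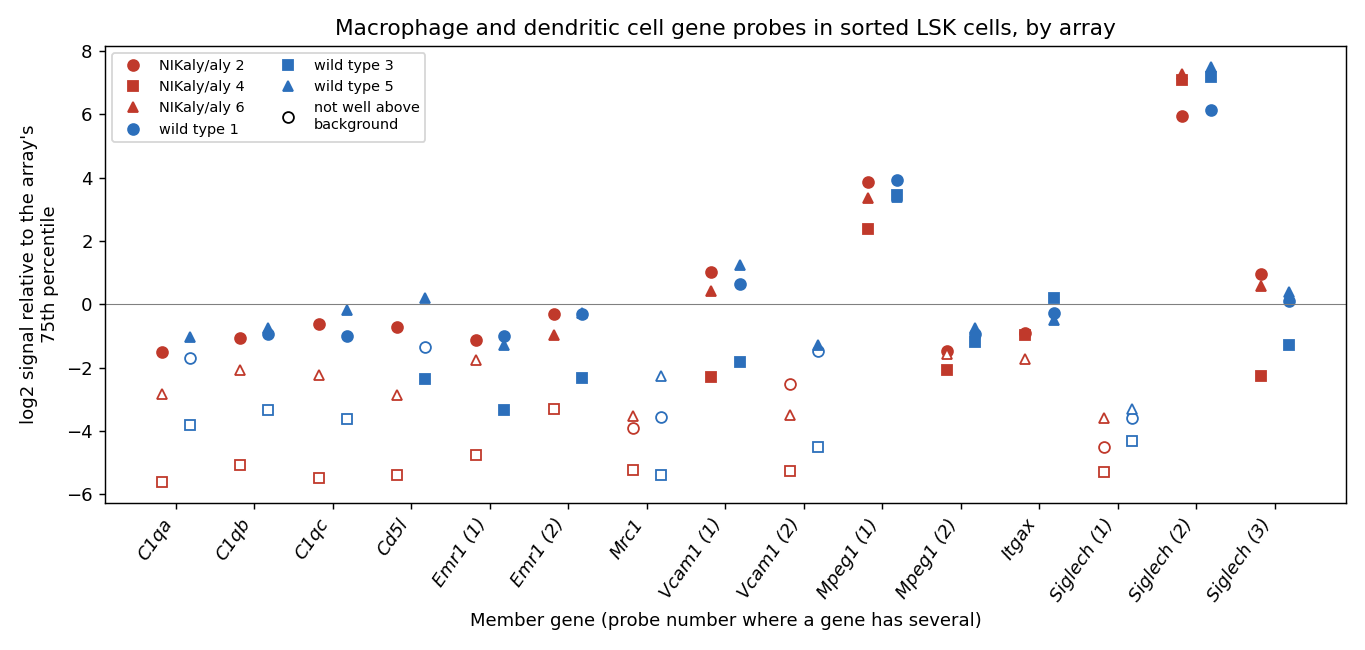
Levels of the 15 member probes on each array, as log2 signal relative to the array's 75th percentile. Red symbols are the 3 NIKaly/aly arrays and blue symbols the 3 wild type arrays, circles, squares and triangles are samples 1 and 2, 3 and 4, and 5 and 6, open symbols are not well above background, and probes of a gene are numbered by identifier. The readings of NIKaly/aly 4 are lowest for the C1q, Cd5l, Emr1 and Vcam1 probes and not well above background except for the bright Vcam1 probe, while those of Itgax lie within 1.92 log2 units.

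C1q is the recognition part of the classical complement pathway and is built from 3 chains, A, B and C, whose genes lie side by side on chromosome 4. Each chain had 1 probe, on the minus strand: C1qb at chr4:136436578-136436637, C1qc at chr4:136445766-136445825 and C1qa at chr4:136452409-136452468 (mm9). The probes for C1qa and C1qb are given whole and that for C1qc by its last 30 bases, to show that the chains were read by unrelated oligonucleotides. No stretch of 16 bases of any of the 3 occurs in another probe on the array.
C1qa A_51_P181451: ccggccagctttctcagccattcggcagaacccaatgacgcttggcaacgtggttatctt
C1qb A_51_P351860: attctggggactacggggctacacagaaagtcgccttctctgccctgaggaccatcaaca
C1qc A_51_P102789: tggccatttatcaataccttatgagactat

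The 3 chains gave nearly the same picture from array to array. C1qc was at -0.62, -5.48 and -2.24 in NIKaly/aly 2, 4 and 6, against -1.0, -3.62 and -0.18 in wild type 1, 3 and 5. C1qb was at -1.05, -5.06 and -2.08 in NIKaly/aly 2, 4 and 6, against -0.94, -3.34 and -0.76 in wild type 1, 3 and 5. C1qa was at -1.49, -5.61 and -2.83 in NIKaly/aly 2, 4 and 6, against -1.68, -3.81 and -1.04 in wild type 1, 3 and 5. For each chain wild type 5, wild type 1 and NIKaly/aly 2 gave the higher readings, and the genotypes overlapped. On NIKaly/aly 4, NIKaly/aly 6 and wild type 3 no chain was well above background, so the low readings there have no order among themselves. The differences of -1.18 ± 1.31 for C1qc and -1.05 ± 1.11 for C1qb between NIKaly/aly and wild type were smaller than the spread between samples (SE, n = 3 each; limma adjusted p = 0.99998 for both). C1qa had too few arrays above background to be tested, and no difference is given for it. Without NIKaly/aly 4 the differences were 0.17 for C1qc and 0.12 for C1qb, so their sign rested on that array.

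The C1qc probe is spotted 10 times on the array, which gives the repeatability of spots within an array. The SD over the unflagged spots was 0.13 and 0.40 in NIKaly/aly 2 and 6, against 0.39, 0.32 and 0.09 in wild type 1, 3 and 5. Spot spread is technical and leaves out how samples differ. In NIKaly/aly 2 and wild type 5 all 9 unflagged spots were well above background, and in wild type 1 it was 9 of 10. In NIKaly/aly 4 and NIKaly/aly 6 it was 0 of 9 and 0 of 10, and in wild type 3 it was 3 of 10. All 9 spots of NIKaly/aly 4 carried the software's surrogate for low signal, so the level of -5.48 there is a floor rather than a measurement, and the range over the arrays is not known.

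**Figure D2:**
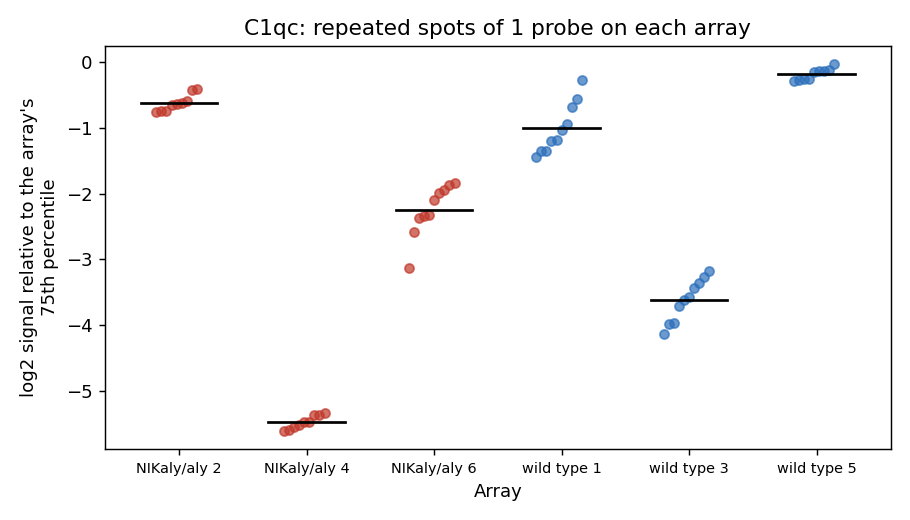
Every unflagged spot of the C1qc probe on each array (9 or 10 spots an array), as log2 signal relative to the array's 75th percentile, with NIKaly/aly in red, wild type in blue and black lines at the array means. Spots of an array lie within 1.29 log2 units of each other, and the spots of NIKaly/aly 4 are all at the floor (mean -5.48).

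The regions just upstream of C1qb and C1qc are shown because the 2 genes were high and low on the same arrays. They are the 250 bases before the transcript start, at chr4:136886201-136886450 for C1qb and chr4:136892915-136893164 for C1qc (GRCm38.p6, minus strand, from RefSeq). Capitals mark GAGGAA or its reverse complement TTCCTC, a purine-rich sequence with the GGAA core that ETS factors such as PU.1 recognise. Each window holds 1 such match. Of the 7 members with a RefSeq window, C1qb, C1qc, Cd5l and Mrc1 hold the letters, 4 of 7, beside 23.3% of all 32851 windows, and a match of letters is not a binding site. C1qa is not among those 4, for lack of either the letters or a window.
C1qb upstream: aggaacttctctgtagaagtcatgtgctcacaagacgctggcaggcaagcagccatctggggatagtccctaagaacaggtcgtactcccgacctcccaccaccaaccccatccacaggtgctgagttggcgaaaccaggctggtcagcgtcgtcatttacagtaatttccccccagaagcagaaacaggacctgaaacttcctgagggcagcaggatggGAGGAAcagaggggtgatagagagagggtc
C1qc upstream: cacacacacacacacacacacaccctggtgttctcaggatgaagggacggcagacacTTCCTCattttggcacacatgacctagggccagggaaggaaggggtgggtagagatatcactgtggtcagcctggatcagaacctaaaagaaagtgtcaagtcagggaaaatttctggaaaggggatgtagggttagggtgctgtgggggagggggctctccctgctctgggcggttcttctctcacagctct

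Cd5l, which encodes a secreted protein of tissue macrophages that supports their survival, was detected on 3 arrays. It was at -0.73, -5.39 and -2.86 in NIKaly/aly 2, 4 and 6, against -1.35, -2.35 and 0.20 in wild type 1, 3 and 5 (probe at chr3:87174823-87174882, mm9). It was well above background in NIKaly/aly 2, wild type 3 and wild type 5. The genotypes overlapped, and the difference of -1.82 ± 1.16 was within the spread (SE, n = 3 each; limma adjusted p = 0.99998). It was 0.62 between NIKaly/aly 2 and wild type 1, -3.04 between NIKaly/aly 4 and wild type 3, and -3.06 between NIKaly/aly 6 and wild type 5. Without NIKaly/aly 4 the difference was -0.63, and with normexp background correction -0.49.

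Emr1 encodes F4/80, the surface protein most used to recognise mouse macrophages. Its probe A_55_P2144386 (chr17:57622868-57622927, mm9) was at -0.30, -3.31 and -0.98 in NIKaly/aly 2, 4 and 6, against -0.30, -2.32 and -0.26 in wild type 1, 3 and 5. The other Emr1 probe, A_55_P2018934, was at -1.14, -4.77 and -1.77 in NIKaly/aly 2, 4 and 6, against -1.01, -3.34 and -1.28 in wild type 1, 3 and 5. The first probe was well above background on all arrays but NIKaly/aly 4, and the other on all but NIKaly/aly 4 and 6. Both gave their lowest scaled reading in NIKaly/aly 4, where it is not a measured level, and the next lowest in wild type 3. The genotypes overlapped by both probes. They differed by -0.57 ± 0.87 and -0.69 ± 1.04 between NIKaly/aly and wild type (SE, n = 3 each; limma adjusted p = 0.99998 for both), and by 0.32 and 0.42 without NIKaly/aly 4.

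Vcam1 encodes an adhesion molecule that binds the integrin of the Itga4 and Itgb1 chains on blood progenitors. In the marrow it is carried by macrophages and also by stromal and endothelial cells. Its probe A_51_P210956 (chr3:115813216-115813275, mm9, minus strand) was well above background on all 6 arrays, at 1.03, -2.30 and 0.41 in NIKaly/aly 2, 4 and 6, against 0.65, -1.82 and 1.25 in wild type 1, 3 and 5. NIKaly/aly 4 and wild type 3 were low and the other 4 arrays high, and the genotypes overlapped. The difference between NIKaly/aly and wild type was -0.31 ± 1.01 (SE, n = 3 each; 95% interval -2.65 to 2.02; limma adjusted p = 0.99998). Leaving out NIKaly/aly 4 turned it to 0.69, and leaving out wild type 5 to 0.30. The second Vcam1 probe, A_52_P520495, was well above background in wild type 5 alone, so no fold is given for it. It read -2.50, -5.25 and -3.50 in NIKaly/aly 2, 4 and 6, against -1.47, -4.51 and -1.30 in wild type 1, 3 and 5.

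C1qb, C1qc, both Emr1 probes, the bright Vcam1 probe and 1 Siglech probe had samples 3 and 4, 1 of each genotype, as their lowest scaled readings. This was 6 of the 11 tested probes, beside 13.0% of all tested probes, and with normexp background correction and quantile normalization again 6 of 11, beside 9.95%. Samples 3 and 4 have the brightest arrays, so undetected readings there are divided by the largest percentiles. The part of the scaling in this order was not tested. C1qb and C1qc were undetected in samples 3, 4 and 6, and Emr1 A_55_P2018934 in samples 4 and 6. For these probes it is thus not known whether sample 6 lies above samples 3 and 4. In linear signal before scaling the bright Vcam1 probe read 256, 41.0 and 67.5 in NIKaly/aly 2, 4 and 6, against 73.9, 63.5 and 191 in wild type 1, 3 and 5, with samples 3 and 4 lowest. C1qb, however, read 60.8, 6.05 and 12 in NIKaly/aly 2, 4 and 6, against 24.6, 22.2 and 47.2 in wild type 1, 3 and 5. For C1qb, C1qc and both Emr1 probes NIKaly/aly 4 and 6 were thus lowest in linear signal. Linear signal also carries the brightness of the whole array, with a 75th percentile of 50.8 in NIKaly/aly 6. It was 201 in NIKaly/aly 4 and 225 in wild type 3. The order in linear signal is therefore not an order of levels between samples.

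Genes of other mature cells varied between the arrays too. The summed level of 11 neutrophil genes, in units of the array's 75th percentile, was 5070, 1590 and 4360 in NIKaly/aly 2, 4 and 6, against 8860, 1620 and 4020 in wild type 1, 3 and 5. That of 5 erythroid genes was 192, 6.88 and 18.8 in NIKaly/aly 2, 4 and 6, against 394, 8.52 and 14.5 in wild type 1, 3 and 5. These sums were lowest in samples 3 and 4. The sum of 8 B cell genes was 69.3, 19.5 and 37.3 in NIKaly/aly 2, 4 and 6, against 137, 37.7 and 41.9 in wild type 1, 3 and 5, and that of 6 T and NK cell genes 179, 74.5 and 94.2 in NIKaly/aly 2, 4 and 6, against 214, 60.6 and 72.5 in wild type 1, 3 and 5. In these the lowest arrays were NIKaly/aly 4 and 6 for B cell genes, though 37.3 in NIKaly/aly 6 was near 37.7 in wild type 3. For T and NK cell genes they were wild type 3 and 5, but that sum is mostly the bright Nkg7. Nkg7 was at 7.41, 6.16 and 6.43 in NIKaly/aly 2, 4 and 6, against 7.63, 5.81 and 6.01 in wild type 1, 3 and 5. Cd3e, Cd4 and Gzma were instead lowest in NIKaly/aly 4, Klrb1c in NIKaly/aly 6 and Cd3g in wild type 3. The summed level of 8 endothelial and stromal genes was 14, 14.8 and 27.8 in NIKaly/aly 2, 4 and 6, against 27.4, 15.5 and 21.6 in wild type 1, 3 and 5, and 4 of the 13 on that list (Cdh5, Col3a1, Dcn and Kitl) were not well above background on any array. The part of these cells in the member levels was not tested.

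The genes whose levels were most like these members over the 6 arrays, by Pearson's r, were Xdh (0.9875), Prg3 (0.9854) and Slc40a1 (0.9853) for Emr1, and Myl2 (0.9954), Ccr3 (0.9931) and Hmox1 (0.9874) for Vcam1. For the mean of the C1q chains they were Xdh (0.987), Cops8 (0.9788) and Ly6g5b (0.9778). Slc40a1, the iron exporter ferroportin, was at 0.38, -2.34 and -0.18 in NIKaly/aly 2, 4 and 6, against 0.17, -1.65 and -0.06 in wild type 1, 3 and 5. Hmox1, heme oxygenase, was at 2.0, -0.53 and 1.20 in NIKaly/aly 2, 4 and 6, against 1.25, -0.17 and 1.84 in wild type 1, 3 and 5. Both were low in samples 3 and 4. Each ranked only 3 by r, and both were singled out here after their values were seen. Spic, another macrophage gene, did not follow them. It was at -0.37, -1.05 and -0.93 in NIKaly/aly 2, 4 and 6, against -1.64, -0.94 and -0.15 in wild type 1, 3 and 5. High values are frequent over 6 arrays: of 10873 genes, 83 had an r over 0.95 with Emr1, 57 with Vcam1 and 35 with the C1q mean.

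Itgax and the dimmer of the Mpeg1 probes were lower on each NIKaly/aly array than on each wild type array, though not beyond the threshold. Itgax, the CD11c chain, was at -0.90, -0.98 and -1.72 in NIKaly/aly 2, 4 and 6, against -0.28, 0.20 and -0.48 in wild type 1, 3 and 5 (probe at chr7:135294052-135294111, mm9). It was well above background on 2 of 3 NIKaly/aly and 3 of 3 wild type arrays, and not in NIKaly/aly 6. Each NIKaly/aly array was below each wild type array. The difference was -1.01 ± 0.37 (SE, n = 3 each; 95% interval -1.88 to -0.15; limma unadjusted p = 0.0264 and adjusted p = 0.99998). An unadjusted p under 0.05 was reached by 1 of the 11 tested member probes and by 1.28% of all tested probes. With consecutive numbers as a block in limma it was 4 of the 11 (Itgax, Mpeg1 A_52_P180373, Cd5l and C1qb), beside 1495 of 21217 tested probes. No member passed after adjustment there, and the labels do not give that pairing.

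The difference of Itgax held its sign in every alternative that included the probe, that is, all but the fit on probes detected on all 6 arrays. It was between -1.16 and -0.76 leaving out 1 array, -0.90 within slide row 1 (samples 1 to 4), -1.24 in row 2 (NIKaly/aly 6 minus wild type 5) and -0.49 with normexp. Each slide column holds a single genotype, and with the column as a random block the adjusted p of Itgax was 0.0132 in limma. That fit estimated a correlation of -0.87 within columns, which shrinks the error of every probe, and it called 8.84% of all tested probes. With the pairs of consecutive numbers as a block the adjusted p was 0.34 in limma. Over all alternatives it was 0.0132 to 1.

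Mpeg1 encodes perforin-2, a pore-forming protein of macrophages. Its probe A_51_P390538 (chr19:12539387-12539446, mm9) was at 3.85, 2.37 and 3.36 in NIKaly/aly 2, 4 and 6, against 3.93, 3.45 and 3.40 in wild type 1, 3 and 5. Here the genotypes overlapped, NIKaly/aly 4 stood below the other 5 arrays, and the difference of -0.40 ± 0.41 became 0.02 without it (SE, n = 3 each; limma adjusted p = 0.99998). The second probe, A_52_P180373 (chr19:12537697-12537756), was at -1.48, -2.06 and -1.57 in NIKaly/aly 2, 4 and 6, against -0.94, -1.18 and -0.74 in wild type 1, 3 and 5. By this probe the genotypes did not overlap, with a difference of -0.75 ± 0.37 (SE, n = 3 each; limma adjusted p = 0.99998), or -0.27 with normexp. The probe was not well above background in NIKaly/aly 6, where the lowest level set so was -1.58. With slide column as a random block its adjusted p was 0.0338 in limma. Groups lying apart, lower in NIKaly/aly, were thus seen for 2 of the 11 tested member probes, Itgax and the second of Mpeg1, beside 2.01% of all tested probes, and no member lay apart on the higher side (4.57% of all tested probes lay apart in either direction).

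Siglech is the member that marks plasmacytoid dendritic cells, and its 3 probes disagreed. The last 30 bases of each are shown because 1 of them is repetitive. Capitals mark the repeated GAAA units at the end of A_55_P2141013.
Siglech A_55_P2141013: tctgtctcAAAGAAAGAAAGAAAGAAAGAA
Siglech A_55_P2165790: ctccaaagttgaagaggctttgacttagtt
Siglech A_55_P2141008: ccctggtggattcctcccaacatttctgga

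Probe A_55_P2141013 (chr7:63034088-63034147, mm9) was at 5.94, 7.08 and 7.27 in NIKaly/aly 2, 4 and 6, against 6.13, 7.16 and 7.50 in wild type 1, 3 and 5. It shares a stretch of 16 bases with 7 probes of 7 other gene names and, on either strand, with 37 of the 32851 RefSeq promoter windows. None of the other 14 member probes shares such a stretch with a probe of another gene, and each of them matches at most 2 windows. Whether transcripts of other genes contribute to its signal was not tested. Probe A_55_P2165790 (chr7:63033826-63033885, mm9), which has no shared stretch and like the first was well above background throughout, was at 0.95, -2.27 and 0.57 in NIKaly/aly 2, 4 and 6, against 0.10, -1.30 and 0.40 in wild type 1, 3 and 5. The repetitive probe was lowest in samples 1 and 2 and the unshared one in samples 3 and 4. The third probe, A_55_P2141008, did not reach that level on any array. Neither tested probe differed beyond the spread between NIKaly/aly and wild type, at -0.17 ± 0.51 and 0.01 ± 0.85 (SE, n = 3 each; limma adjusted p = 0.99998 for both; 95% intervals -1.34 to 1.0 and -1.95 to 1.97).

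**Figure D3:**
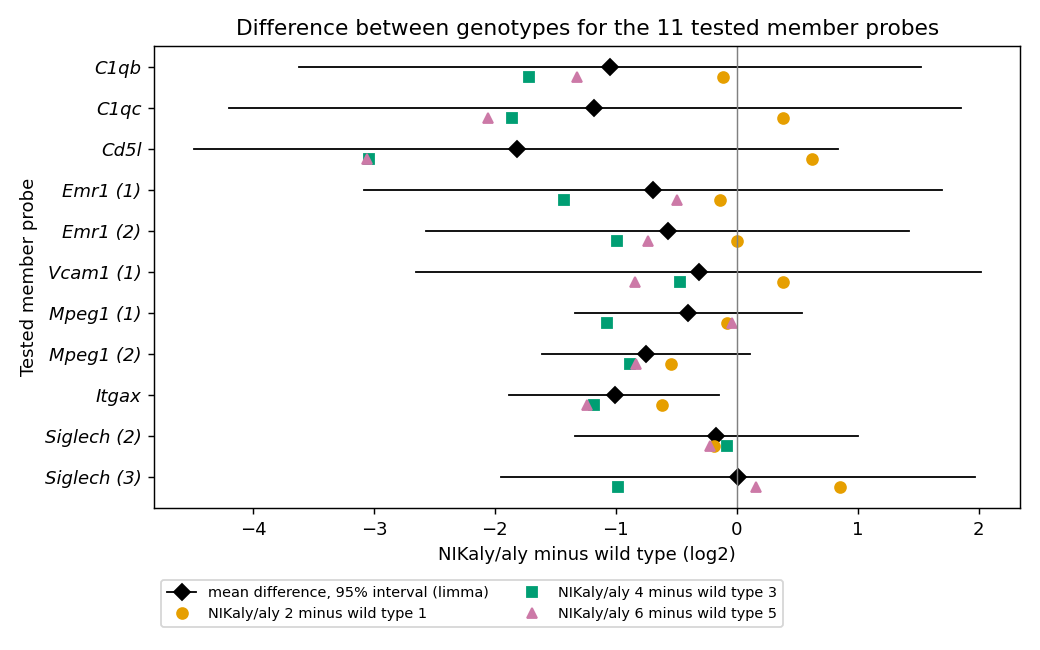
Difference between NIKaly/aly and wild type (log2) for the 11 tested member probes, with black diamonds at the mean difference, black bars for the 95% interval from limma, and coloured symbols for the 3 differences between arrays of consecutive number. Itgax is the probe whose interval lies below 0 (-1.88 to -0.15), and the widest intervals are those of C1qc (-4.20 to 1.85) and Cd5l (-4.49 to 0.84).

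Set side by side, the 8 tested genes (each by its brightest probe) all read lower in NIKaly/aly, with a median difference of -0.79, beside a median of -0.009 over all tested probes, of which 51.5% read lower. With Siglech by its unshared probe it was 7 of 8. The median was -0.40 over the 5 member genes detected on at least 5 arrays and -0.31 over the 3 detected on all 6. Marker genes of other cells also read lower in NIKaly/aly: 8 of 8 tested B cell genes (median -0.82), 11 of 11 neutrophil genes (-0.17), 5 of 5 erythroid genes (-0.27), 7 of 8 endothelial and stromal genes (-0.22) and 4 of 6 T and NK cell genes (-0.27). These medians too moved with single arrays, at -0.06, 0.48, 0.80, -0.16 and 0.22 in the same order without NIKaly/aly 4, and -0.17, 0.43, 1.35, -0.12 and 0.12 without wild type 1. The neutrophil, erythroid and T and NK cell medians thus changed sign. Those of the B cell and of the endothelial and stromal genes stayed below 0 whichever array was left out. The list of the sorted LSK cells themselves went the other way, with 7 of 10 genes higher and 3 lower in NIKaly/aly (median 0.23). None of the 11 probes passed the adjusted threshold of 0.05 in limma, where 0 of all 21217 tested probes did (0%) and 271 had an unadjusted p under 0.05. The shared direction rested on NIKaly/aly 4: without it 3 of the 8 genes read lower and the median was 0.07. Leaving out wild type 3 gave a median of -1.25 and leaving out wild type 5 one of -0.48, each a move of over 1.5 times. Within slide row 1 it was -0.66. Between arrays of consecutive number the median was -0.04 for samples 2 and 1, -1.13 for 4 and 3, and -1.04 for 6 and 5. Itgax, Mpeg1, C1qb and Siglech, 4 of the 8, read lower in all 3 such pairs, as 15.7% of all tested probes did, and with the unshared Siglech probe it was 3 of 8.

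**Figure D4:**
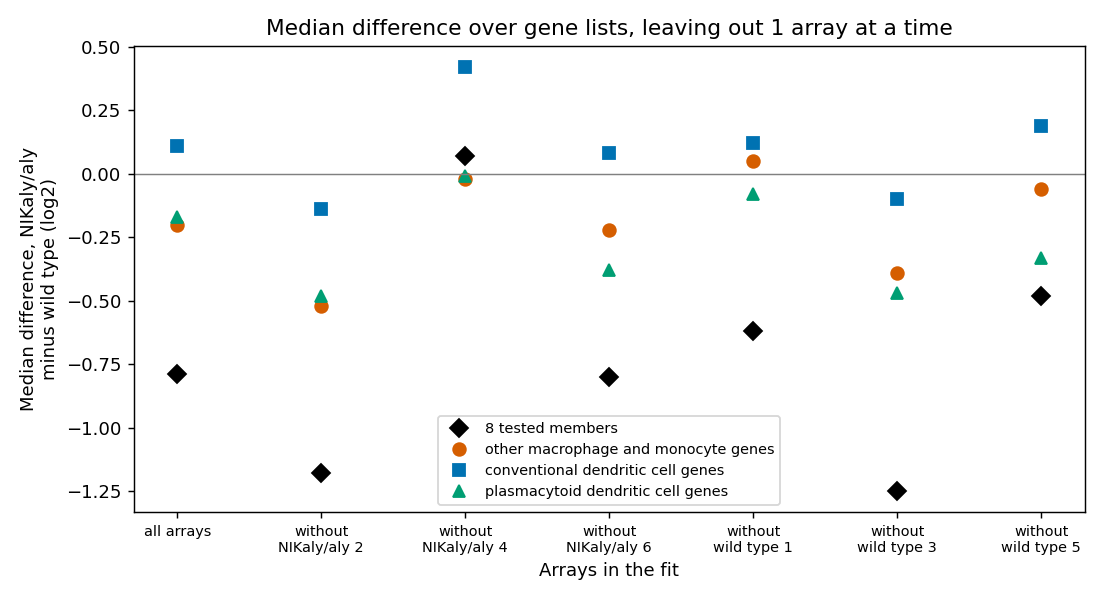
Median difference between NIKaly/aly and wild type (log2) over the 8 tested members and over 3 lists of related genes, with all 6 arrays and leaving out each array in turn. The member median is between -1.25 and -0.48 in every fit but the one without NIKaly/aly 4, where it is 0.07.

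Other genes of macrophages and monocytes read lower and higher. Of 25 on the list 16 were tested, of which 12 read lower and 4 higher in NIKaly/aly (median -0.20), and 0 passed in limma. The list held 9 lower without NIKaly/aly 4 (median -0.02), 8 without wild type 5 (-0.06) and 7 without wild type 1 (0.05), and leaving out NIKaly/aly 2 or wild type 3 gave medians of -0.52 and -0.39. The tissue macrophage genes Mertk, Cd163, Timd4, Marco, Msr1, Siglec1 and Folr2 were not well above background on any array. Fcgr1, a macrophage receptor for antibody, was so on 2. The summed level of the 16 was 151, 84.2 and 115 in NIKaly/aly 2, 4 and 6, against 208, 103 and 145 in wild type 1, 3 and 5.

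Of the 16 tested genes of this list the genotypes did not overlap for 3, 2 lower and 1 higher in NIKaly/aly, beside 4.57% of all tested probes. The 4 genes with the smallest p are described here, a choice that favours groups lying apart. Csf1r, the receptor for the growth factor CSF-1, was at 3.82, 3.77 and 3.26 in NIKaly/aly 2, 4 and 6, against 5.29, 4.51 and 4.55 in wild type 1, 3 and 5. Cx3cr1, the fractalkine receptor of monocytes, was at -0.26, 0.04 and -1.24 in NIKaly/aly 2, 4 and 6, against 0.63, 0.91 and 0.25 in wild type 1, 3 and 5. Cd14, the co-receptor for lipopolysaccharide, was at 4.25, 2.65 and 3.1 in NIKaly/aly 2, 4 and 6, against 1.95, 0.06 and 1.87 in wild type 1, 3 and 5. The differences were -1.17 ± 0.33 for Csf1r, -1.08 ± 0.40 for Cx3cr1, 2.04 ± 0.60 for Cd14 and, with overlapping groups, -0.72 ± 0.37 for the lipoprotein gene Apoe (SE, n = 3 each; limma adjusted p = 0.99998 for each). Cd14 thus read higher and the other 3 lower, and leaving out any 1 array kept these signs. These 3 non-overlapping genes were detected on 5 or 6 arrays, unlike C1q and Cd5l.

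Genes of dendritic cells were also mixed. Of 16 for conventional dendritic cells 10 were tested, of which 3 read lower and 7 higher in NIKaly/aly (median 0.11). Leaving out an array turned this median to -0.14 (NIKaly/aly 2) or -0.10 (wild type 3), and moved it to 0.42 (NIKaly/aly 4) or 0.19 (wild type 5). Zbtb46, Clec9a and Xcr1, which mark the mature cells, and the class II regulator Ciita were not well above background on any array. Irf8, a transcription factor of monocyte and dendritic progenitors, was at 3.95, 3.59 and 3.07 in NIKaly/aly 2, 4 and 6, against 5.25, 4.79 and 4.23 in wild type 1, 3 and 5. Its groups did not overlap and the difference was -1.22 ± 0.37 (SE, n = 3 each; limma adjusted p = 0.99998). The class II antigen presentation genes H2-Aa, H2-Eb1 and H2-Ab1 differed by 0.92 ± 0.81, 0.66 ± 0.73 and 0.52 ± 0.61, with overlapping groups. With 1 array left out they ran from 0.26 to 1.76, 0.07 to 1.41 and 0.06 to 1.14.

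Of 12 genes of plasmacytoid dendritic cells 11 were tested, and 8 read lower and 3 higher in NIKaly/aly (median -0.17). Leaving out 1 array gave medians between -0.48 (NIKaly/aly 2) and -0.01 (NIKaly/aly 4), with moves of over 1.5 times for each of the 6 arrays. Irf7 and Tlr7, which act in interferon induction by nucleic acid, differed by -0.67 ± 0.43 and -0.66 ± 0.56, Cox6a2 by -0.66 ± 0.57 and Ly6d by -1.02 ± 1.03 (SE, n = 3 each; limma adjusted p = 0.99998 for each). With 1 array left out, Irf7 ran from -1.04 to -0.34 and Tlr7 from -1.11 to -0.15. Cox6a2 then ran from -1.26 to -0.18 and Ly6d from -1.83 to -0.08. Tcf4, the transcription factor that sets plasmacytoid identity, was at 2.95, 3.69 and 3.51 in NIKaly/aly 2, 4 and 6, against 2.58, 3.78 and 3.38 in wild type 1, 3 and 5. It was detected on all 6 arrays and differed by 0.14.

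The partners of C1q in the classical complement pathway and of Vcam1 in adhesion were likewise mixed. Of 14 complement genes 8 were tested, 6 lower and 2 higher (median -0.11, but 0.07 to 0.11 without NIKaly/aly 4, wild type 1 or wild type 5, and -0.27 and -0.22 without wild type 3 and NIKaly/aly 2), and the C1s protease was not detected on any array. C1ra, the protease that C1q activates, was at 1.24, 0.62 and 0.63 in NIKaly/aly 2, 4 and 6, against 0.43, 0.05 and 0.01 in wild type 1, 3 and 5. It read higher in NIKaly/aly with groups apart, by 0.67 ± 0.30 (SE, n = 3 each; limma adjusted p = 0.99998). C4b differed by 0.97 ± 0.64, properdin (Cfp) by -0.73 ± 0.59 and C3 by -0.50 ± 0.79, all with overlapping groups. With 1 array left out, C4b ran from 0.27 to 1.66, Cfp from -1.23 to -0.14 and C3 from -1.20 to 0.24. Of the 7 integrin and ligand genes related to Vcam1, 6 were tested, 4 lower and 2 higher (median -0.13, but -0.40 without NIKaly/aly 2, -0.33 without wild type 3, -0.03 without wild type 5 and 0 without NIKaly/aly 4). Itgb1 was at 2.32, 1.98 and 2.36 in NIKaly/aly 2, 4 and 6, against 1.69, 1.73 and 1.60 in wild type 1, 3 and 5, a difference of 0.55 ± 0.25 with groups apart. Itga4, its partner chain in the VCAM-1 receptor, differed by -0.11 ± 0.43, Itgb7 by -0.73 ± 0.41 and Itgal by -0.51 ± 0.38 (SE, n = 3 each; limma adjusted p = 0.99998 for these 4 genes). With 1 array left out, Itga4 ran from -0.54 to 0.19, Itgb7 from -0.98 to -0.31 and Itgal from -0.79 to -0.20.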

How the data were processed

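Scanner output of 6 arrays in 1 colour (3 NIKaly/aly, 3 wild type) was read as deposited. Per the file headers, spot intensity came from Agilent's Feature Extraction software (version 10.7.3.1), with mm9 probe positions; the deposited processed signal is background-subtracted and detrended, with a surrogate for low values. The authors' deposited series table holds a ratio per spot, equal to the processed signal over the array's median, and served as an alternative.

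Levels are log2 processed signals minus the array's log2 75th percentile, taken over its spots other than controls. Outlier-flagged spots were dropped, and spots of a probe averaged. A probe was well above background where over 50% of its spots were. No spot was saturated. Of 55681 probes, 21217 were tested, those well above background on at least 3 arrays and complete on all 6. Genotype was the only term, in limma 3.58.1 (R 4.3.3), with lmFit, eBayes with an intensity trend, 4 residual degrees of freedom and Benjamini-Hochberg adjustment over all tested probes. Probes were fitted singly so that every member probe had a test. The fit was tested on simulated data with changes larger than any member difference given here. That checks the calculation and not the power at smaller differences. A gene in a list is represented by its brightest tested probe. List genes were matched to gene names in the files, or else to current RefSeq symbols.

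Members, lists and tests were chosen with earlier results of these data known. The named genes are all members, Map3k14, up to 4 genes of each related list with the smallest p, up to 3 genes most correlated with a member detected on at least 5 arrays or with the C1q mean, and the markers Hbb-b1 and S100a9. Those most like Itgax were Ldoc1l (r = 0.982), Oasl1 (0.9783) and Diras2 (0.9782), those most like Mpeg1 were Dhx37 (0.9895), Acp2 (0.9893) and Tmem189 (0.972), and those most like the repetitive Siglech probe were Mycbp (0.9964), Mllt3 (0.9953) and Csf3r (0.9938). Kit, Ly6a, Cd34, Tcf4, Spic, the single T and NK cell genes and genes not well above background were named after their values were seen. The summed level of 10 LSK genes, in units of the array's 75th percentile, was 405, 376 and 376 in NIKaly/aly 2, 4 and 6. In wild type 1, 3 and 5 it was 356, 332 and 309. The sums were thus higher in NIKaly/aly with groups apart, and this was not tested. A linear sum is weighted to its brightest gene, here Cd34, whose groups overlapped. Cd34 was at 7.76, 7.43 and 7.31 in NIKaly/aly 2, 4 and 6, against 7.53, 6.93 and 7.11 in wild type 1, 3 and 5. Taken singly, 1 of the 10 genes lay apart, higher in NIKaly/aly, beside 4.57% of all tested probes in either direction. The number of arrays limits the precision.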

Additional observations from a re-analysis of the deposited data

How the results depend on the processing

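Over 21 alternatives, no member probe passed in limma except with slide column as a random block, where 2 did, Itgax and Mpeg1 A_52_P180373, among 1876 of all probes. Of all probes, 5 passed with median scaling or the authors' table, 2 with consecutive numbers as a block, 12 with no filter, and 0 to 1 leaving out 1 array. Itgax, Cd5l and Mpeg1 A_52_P180373 kept their sign in each alternative that included them; the fit on probes detected on all 6 arrays held none of the 3, and that with 1 probe a gene not the Mpeg1 probe. The others changed sign when 1 array was left out, over ranges of -1.89 to 0.12 for C1qb, -2.26 to 0.17 for C1qc, -1.42 to 0.42 and -1.25 to 0.32 for Emr1 A_55_P2018934 and A_55_P2144386, -1.24 to 0.69 for Vcam1, -0.72 to 0.02 for Mpeg1 A_51_P390538, -0.57 to 0.25 for Siglech A_55_P2141013 and -0.59 to 1.02 for Siglech A_55_P2165790. The last was also below 0 within slide row 1 (-0.06), with array weights (-1.02), without samples 1 and 2 (-0.41) and as a mean of probes (-0.08); the cause was not tested. With normexp and its offset of 50, which draws dim signals together, the member median was -0.28. The alternatives with the authors' table and the slide column were added after the data were seen. The pairing of consecutive numbers is not in the labels. Signals near background limit the C1q chains in samples 3, 4 and 6 (C1qa also in 1), Cd5l in 1, 4 and 6, and Emr1 in 4 and, by 1 probe, 6. They also limit Itgax and Mpeg1 A_52_P180373 in sample 6.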
